A study of Rattus norvegicus with 10 samples.

Results

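ATP-binding cassette (ABC) transporters were measured here with 50 probe sets of 37 genes, out of 31042 probe sets tested, in rat macrophages that had or had not been given myelin. A probe set, a group of short probes that read 1 transcript region, was a member where the array annotation gave it a single gene symbol that starts with Abca to Abcg followed by a number. The rule reads the symbol alone, but the family itself was chosen with earlier results of these data known. The comparison was between 5 samples of mye-macrophages and 5 samples of control macrophages, with 1 array of the Affymetrix rat genome design per sample. Both groups were resident peritoneal macrophages of Hsdcpb:WU rats, kept in culture after non-adherent cells had been washed off; the age of the rats and any genetic change are not given in the sources used here. Mye-macrophages received 100 µg/ml of myelin isolated from brain for 3 days, and control macrophages no myelin over the same 3 days. Both groups then received IFNγ and IL-1β at 100 ng/ml for 9 hours, so no sample shows these genes without the cytokines.

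ABC transporters are membrane proteins that use ATP to move lipids, bile salts, peptides, drugs and other molecules across membranes. They are grouped into subfamilies A to G by sequence, and the E and F members lack membrane-spanning parts and act in translation instead. In macrophages the best known members are Abca1 and Abcg1, which pass cholesterol and phospholipid from a lipid-laden cell to apolipoproteins and high-density lipoprotein, and whose genes are targets of the liver X receptors (LXRs), nuclear receptors that sense cholesterol derivatives.

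Abcg1 and Abca1 were higher in mye-macrophages, by 2.17-fold and 1.64-fold on their brightest probe sets, and Abcc5, an exporter of cyclic nucleotides and organic anions, was higher by 1.29-fold. Abcb1a, which encodes the drug efflux pump P-glycoprotein, was lower, at 0.777 times the level in control macrophages. All 4 moved the same way in 5 of 5 pairs of samples with the same replicate number. A probe set was called where limma with a block for the replicate number gave an adjusted p under 0.05 (Benjamini-Hochberg, over the 15521 probe sets of larger interquartile range, the variance filter). Of the 50 ABC probe sets, 5 were called higher and 1 lower, 17 passed the variance filter and were not called, and 27 lay outside it. With the pair as a random block at the estimated correlation, 0 were called in either direction (adjusted p = 0.118 for Abcg1 and 0.214 for Abca1, limma). Over all genes, 2.69% of the probe sets in the filter were called, 0.792% higher and 1.9% lower. The 6 calls belonged to 4 of the 37 genes. In RNA of a whole culture, fewer cells of a type and less RNA per cell cannot be told apart.

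The calls depended on the test as well as on the block. The paired test on each probe set alone also called 0 ABC probe sets (adjusted p = 0.222 for Abcg1 and 0.298 for Abca1), although it keeps the pairs. Without the replicate block limma called 0 ABC probe sets and 0 of all probe sets. The adjusted p of that limma fit was 0.585 for Abcg1 and 0.734 for Abca1. At an unadjusted p under 0.05 the same fit gave 5 of the 50 ABC probe sets higher and 2 lower. Over all 31042 probe sets it gave 655 higher and 730 lower, of which 420 and 612 were in the filter.

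The region before the start of the gene is shown for Abca1 because its transcript was called higher, for Abcd2 because it held the closest match to the element that LXR and its partner bind, and for Abcb1a because it was the gene called lower. The sequences are from RefSeq on build GRCr8, given 5′ to 3′ on the strand of the gene, and all 3 genes lie on the minus strand. Abca1 covers chr5:72596474-72596723, Abcd2 chr7:124191332-124191427 and Abcb1a chr4:26397649-26397898. Relative to the start, the Abca1 and Abcb1a stretches run from position -250 to -1. The Abcd2 stretch is shorter, runs from -225 to -130 and so does not reach the start. Capitals mark, in Abca1, the E-box CACGTG and the best match to the direct repeat of AGGTCA with 4 bases between its copies, in Abcd2 the match to the same repeat, and in Abcb1a the GC box GGGCGG.
Abca1: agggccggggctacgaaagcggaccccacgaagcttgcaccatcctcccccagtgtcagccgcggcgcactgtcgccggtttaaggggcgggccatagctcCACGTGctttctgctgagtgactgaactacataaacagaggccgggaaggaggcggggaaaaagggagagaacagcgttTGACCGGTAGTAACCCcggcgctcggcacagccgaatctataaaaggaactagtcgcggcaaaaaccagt
Abcd2: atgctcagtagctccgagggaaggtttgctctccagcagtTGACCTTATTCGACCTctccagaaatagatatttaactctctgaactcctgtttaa
Abcb1a: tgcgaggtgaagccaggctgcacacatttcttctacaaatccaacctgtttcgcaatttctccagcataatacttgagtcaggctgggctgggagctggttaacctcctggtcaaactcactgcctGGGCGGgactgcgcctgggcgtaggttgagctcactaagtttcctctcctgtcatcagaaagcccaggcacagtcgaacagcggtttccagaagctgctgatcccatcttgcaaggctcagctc
The repeat lies on the opposite strand in Abca1 and Abcd2, so a copy without mismatch would read there as TGACCT. In Abca1 it lies 70 to 55 bases before the start and differs from the repeat at 3 of its 12 fixed bases. In Abcd2 it lies 185 to 170 bases before the start, with 1 mismatch.

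A promoter of 250 bases before to 50 bases after the start was found for 30 of the 37 genes; Abca8a, Abcb11, Abcc3, Abcc5, Abcc8, Abcf1 and Abcg1 had no entry there. With up to 2 mismatches, the repeat was found on either strand in 1 of the 30 (Abcd2), against 2.93% of all 33469 RefSeq promoters. With up to 3 mismatches, a limit chosen after the matches with 2 had been seen, it was found in 5 of 30 (Abca1, Abcb8, Abcc9, Abcd2 and Abcf2), against 21.9% of all promoters. CACGTG was found in 2 of 30 (Abca1 and Abcb6), against 6.42%, and GGGCGG, on either strand, in 21 of 30, Abcb1a and Abca1 among them, against 33.1%. Such a match describes the letters only, and binding was not tested.

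Values are given on the log2 scale of the deposited arrays, in the order of replicates 1 to 5. Abcg1, which loads cholesterol onto high-density lipoprotein, was read by 3 probe sets. On the brightest, 1368103_at, mye-macrophages had 7.60, 8.28, 6.32, 6.61 and 6.35, against 6.36, 6.55, 5.59, 5.31 and 5.74 in control macrophages. Replicates 1 and 2 were the highest of both groups, and the groups overlapped, because mye-macrophages 3 and 5 lay below control macrophages 1 and 2. Its mean reached 7.03 ± 0.87 in mye-macrophages and 5.91 ± 0.52 in control macrophages (SD, n = 5 each), a log2 difference of 1.12 with a 95% interval of 0.79 to 1.45 (adjusted p = 0.0112, limma with the block). Within the pairs the difference was 1.24, 1.73, 0.73, 1.30 and 0.61. Without pair 1 the adjusted p was 0.0588, and without any other pair it stayed under 0.05.

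The other Abcg1 probe sets had signals of 4.03 or less and were not called. On 1373995_at, mye-macrophages had 2.44, 4.03, 1.99, 1.94 and 2.01, against 1.96, 2.23, 1.69, 1.94 and 1.64 in control macrophages, a difference of 0.59 (95% interval 0.12 to 1.07, adjusted p = 0.164, limma with the block). Mye-macrophages 2 stood far above all other samples, and in pair 4 both samples were at almost the same value. On 1387054_at, which lay outside the variance filter, mye-macrophages had 2.87, 3.22, 2.90, 3.22 and 2.89, against 2.85, 2.66, 2.82, 2.89 and 2.65 in control macrophages. All 5 pairs were higher in mye-macrophages there, by 0.24 on average (95% interval 0.05 to 0.44, unadjusted p = 0.0205).

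Abca1, which passes cholesterol and phospholipid to lipid-poor apolipoprotein A-I, was read by 4 probe sets, and 3 were called higher. The brightest, 1383355_at, gave 8.58, 9.34, 7.82, 8.58 and 7.66 in mye-macrophages, against 7.74, 7.84, 7.38, 8.36 and 7.08 in control macrophages. Sample 2 of the mye-macrophages was the highest of all, the groups overlapped, and control macrophages 4 lay above mye-macrophages 3 and 5. Its mean reached 8.40 ± 0.68 in mye-macrophages and 7.68 ± 0.49 in control macrophages (SD, n = 5 each), a log2 difference of 0.72 (95% interval 0.36 to 1.07, adjusted p = 0.0473, limma with the block). The pair differences were 0.84, 1.51, 0.44, 0.22 and 0.57, largest in pair 2 and smallest in pair 4.

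On 1382431_at, mye-macrophages had 7.29, 7.32, 6.71, 7.24 and 7.26, against 6.59, 6.11, 6.14, 7.08 and 6.72 in control macrophages, 1.55-fold higher (adjusted p = 0.0372, limma with the block). Here 4 of the 5 mye-macrophage samples lay above every control sample, and mye-macrophages 3 was the exception. On 1384381_at, mye-macrophages had 6.32, 6.91, 5.50, 6.41 and 5.36, against 5.47, 5.55, 4.95, 6.03 and 4.99 in control macrophages, 1.62-fold higher (adjusted p = 0.0330, limma with the block). The 3 probe sets gave log2 differences of 0.63 to 0.72. The dim probe set 1394490_at had 3.64, 3.97, 3.59, 3.23 and 2.73 in mye-macrophages, against 3.50, 3.26, 2.81, 3.49 and 3.33 in control macrophages, and was not called (log2 difference 0.16, 95% interval -0.26 to 0.57, adjusted p = 0.674, limma with the block). The brightest Abca1 probe set had an adjusted p of 0.151, 0.0807, 0.062 and 0.113 without pair 1, 2, 4 or 5, and of 0.0413 without pair 3, so that leaving out any of 4 pairs ended its call. The call on 1382431_at was lost without pair 1, 2 or 5 (adjusted p = 0.123, 0.0797 and 0.0982, limma with the block). The call on 1384381_at was lost without pair 1, 2, 4 or 5 (adjusted p = 0.119, 0.0662, 0.062 and 0.0687, limma with the block).

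**Figure D1:**
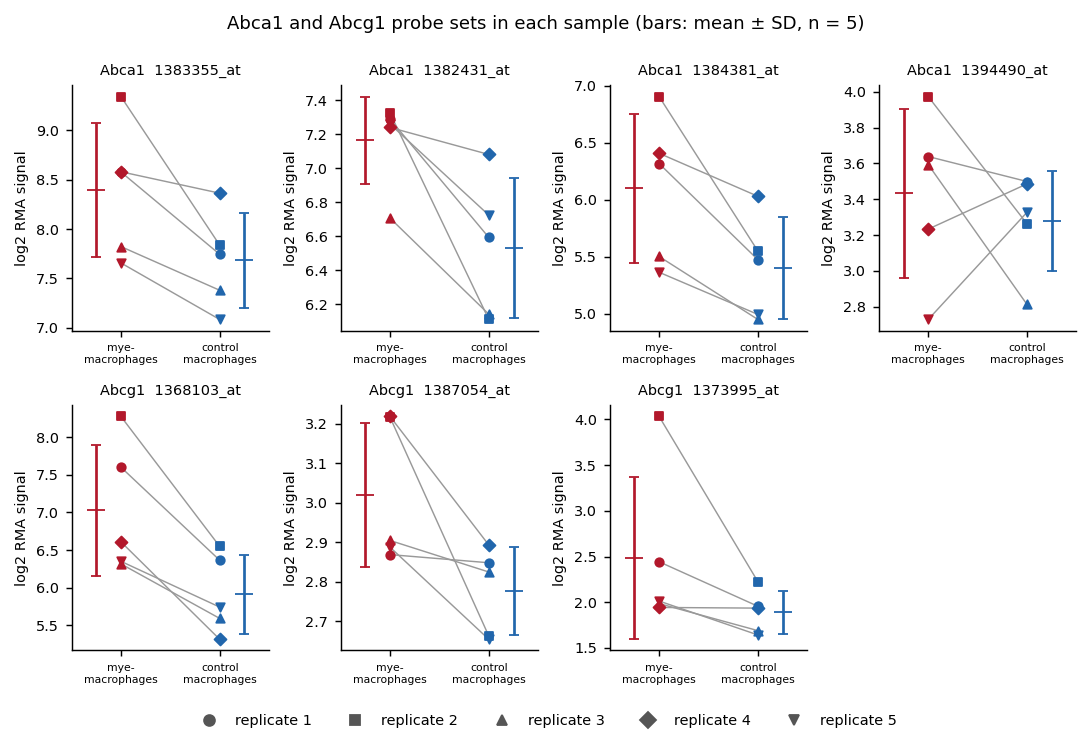
Deposited log2 signal (vertical axis) of every Abca1 and Abcg1 probe set in the 5 mye-macrophage samples and the 5 control samples, with a line joining samples of the same replicate number and bars for the mean and SD. On the brightest Abcg1 probe set all 5 lines slope the same way, with pair differences of 0.61 to 1.73.

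Abcc5, or multidrug resistance protein 5, exports cyclic nucleotides and other organic anions. Its probe set 1387030_at had 6.14, 6.08, 6.69, 6.82 and 6.76 in mye-macrophages, against 5.62, 5.92, 6.23, 6.49 and 6.38 in control macrophages. Numbers 1 and 2 were low and 4 high in both groups, so the groups overlapped although every pair was higher in mye-macrophages. The log2 difference was 0.37 (95% interval 0.20 to 0.54, adjusted p = 0.0372, limma with the block), and without any 1 of the 5 pairs the adjusted p lay between 0.0562 and 0.118. The second probe set of the gene, 1375468_at, had 2.24, 2.60, 2.93, 2.83 and 2.96 in mye-macrophages, against 2.07, 2.41, 2.73, 2.42 and 2.47 in control macrophages, and was not called (0.29, 95% interval 0.12 to 0.46, adjusted p = 0.0730, limma with the block).

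Abcb1a was the ABC gene that was called lower. On 1370464_at, mye-macrophages had 2.84, 2.59, 3.08, 3.02 and 3.00, against 3.08, 3.06, 3.36, 3.38 and 3.47 in control macrophages. Each mye-macrophage sample lay below its own partner, and the highest of them reached only the 2 lowest control samples. The log2 difference was -0.36 (95% interval -0.52 to -0.21, adjusted p = 0.0325, limma with the block). On 1370465_at, mye-macrophages had 2.63, 2.64, 2.61, 2.88 and 2.43, against 2.96, 2.56, 2.76, 3.06 and 3.26 in control macrophages, lower in 4 of 5 pairs (log2 difference -0.28, 95% interval -0.54 to -0.02, adjusted p = 0.215, limma with the block). The call on 1370464_at was lost in each of the 5 fits that left out a pair: the adjusted p was 0.0765, 0.0971 and 0.0978 without pair 1, 2 or 4, and without pair 3 or 5 the probe set fell outside the filter. Rats carry a related neighbour gene, Abcb1b, and how far the probes tell the 2 transcripts apart was not tested.

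Of the other C members, Abcc1 and Abcc4, which export glutathione conjugates, leukotrienes, prostanoids or cyclic nucleotides, had lower means in mye-macrophages and were not called. Abcc1 had 5.58, 5.43, 5.74, 5.53 and 5.50 in mye-macrophages, against 5.70, 5.72, 6.06, 5.50 and 6.08 in control macrophages, lower in 4 of 5 pairs (log2 difference -0.26, 95% interval -0.46 to -0.05, adjusted p = 0.159, limma with the block). Abcc4 had 4.93, 5.02, 5.21, 4.70 and 5.16 in mye-macrophages, against 5.11, 5.45, 5.15, 4.81 and 5.47 in control macrophages (log2 difference -0.20, 95% interval -0.38 to -0.01, adjusted p = 0.227, limma with the block). The groups of both genes overlapped. The remaining 8 probe sets of the C subfamily lay between -0.09 (Abcc10) and 0.12 (Abcc8, a potassium channel subunit that binds sulfonylureas), and included Abcc2 (-0.05) and Abcc3 (0.04), exporters of bile salts and conjugates in liver.

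The D members sit in organelle membranes. Abcd2, which brings very long-chain fatty acids into peroxisomes, was the ABC probe set whose groups did not overlap: mye-macrophages had 0.62, 0.50, 0.53, 0.55 and 0.50, against 0.40, 0.17, 0.48, 0.41 and 0.47 in control macrophages. These signals lie far under the array medians, the probe set lay outside the variance filter, and the log2 difference of 0.16 had a 95% interval of -0.01 to 0.32 (unadjusted p = 0.0567). Of all probe sets 0.451% did not overlap with mye-macrophages higher, and 0.283% with mye-macrophages lower, where 0 of the 50 ABC probe sets fell. Abcd3, another peroxisomal fatty acid transporter, had 5.31, 5.09, 5.53, 5.57 and 5.50 in mye-macrophages, against 5.10, 4.95, 5.02, 5.62 and 5.47 in control macrophages, and was not called (0.17, 95% interval -0.03 to 0.37, adjusted p = 0.309, limma with the block). In pair 4 its order was turned round.

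In the B subfamily, Abcb6, a porphyrin transporter, had 3.24, 3.14, 3.09, 3.06 and 2.95 in mye-macrophages, against 3.02, 2.78, 2.95, 3.00 and 2.91 in control macrophages. It was higher in 5 of 5 pairs, by 0.17 on the log2 scale (unadjusted p = 0.0465), and lay outside the variance filter. The other 6 B probe sets outside the named ones had log2 differences between -0.05 and 0.02. They cover Abcb4, the phosphatidylcholine flippase of bile, Abcb8 and Abcb10 of the mitochondrial inner membrane, Abcb9, a lysosomal peptide transporter, and Abcb11, the bile salt export pump.

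The soluble members act in translation, and none of them was called. Abce1, which splits ribosomes for reuse, had 6.68, 6.79, 7.06, 6.82 and 7.01 in mye-macrophages, against 7.13, 7.08, 7.08, 6.80 and 6.99 in control macrophages (log2 difference -0.14, 95% interval -0.34 to 0.06, adjusted p = 0.399, limma with the block). Abcf1 had 7.18, 7.29, 7.32, 7.06 and 7.21 in mye-macrophages, against 7.06, 7.19, 7.29, 7.15 and 7.18 in control macrophages. Abcf2 had 6.73, 6.96, 6.69, 6.61 and 6.71 in mye-macrophages, against 6.88, 6.91, 6.69, 6.61 and 6.66 in control macrophages. Abcf1 and Abcf2 both lay outside the filter, with overlapping groups. The 95% intervals of the log2 difference were -0.11 to 0.19 for Abcf1 and -0.16 to 0.14 for Abcf2. The brighter probe set of Abcf3 lay in the filter, with a log2 difference of 0.09 (adjusted p = 0.479, limma with the block).

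Of the A members other than Abca1, Abca3, the transporter that fills surfactant lamellar bodies in lung, had 6.57, 6.61, 6.49, 6.59 and 6.68 in mye-macrophages, against 6.50, 6.58, 6.50, 6.48 and 6.66 in control macrophages (log2 difference 0.04, 95% interval -0.10 to 0.19). The remaining A probe sets lay between -0.02 (Abca8a) and 0.14 (Abca4, the retinoid transporter of photoreceptors). Abca7, the closest relative of Abca1, was at 0.13, with a 95% interval of -0.13 to 0.38, and Abca2, a lipid transporter of lysosomes that is abundant in oligodendrocytes, at 0.07 (-0.08 to 0.22). Of the G members other than Abcg1, Abcg2, an exporter of drugs and urate, had a log2 difference of -0.06. Abcg4, the close relative of Abcg1, was at 0.04. Abcg5 and Abcg8, which together export sterols in liver and gut, were at 0.04 and 0.08. The mean levels of Abcg2, Abcg4, Abcg5 and Abcg8 lay under the median of all probe set means. Abcg3l1, with a mean level of 5.29, was at 0.06 (adjusted p = 0.769, limma with the block).

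**Figure D2:**
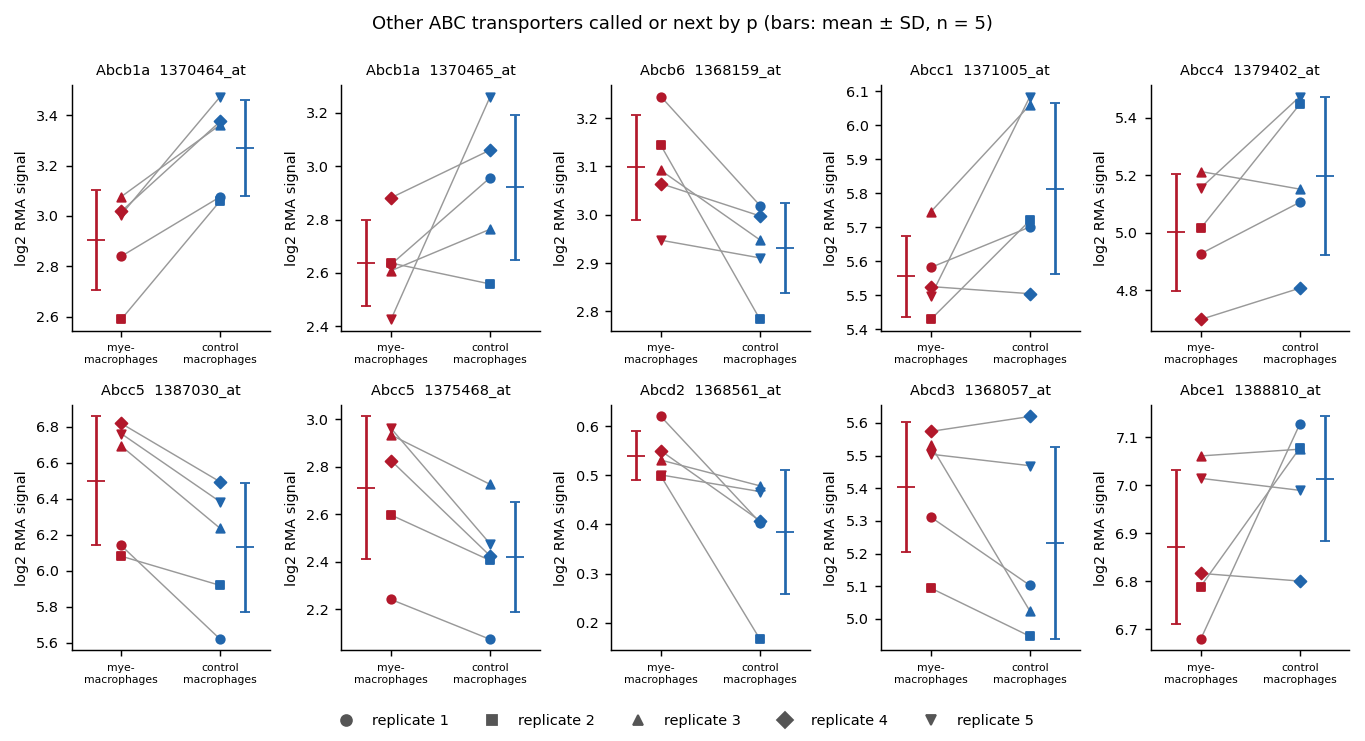
Deposited log2 signal (vertical axis) of the 10 ABC probe sets, outside Abca1 and Abcg1, that were called or had the next smallest p, in 5 mye-macrophage and 5 control samples, with lines joining the same replicate number. The lines of Abcc5 and Abcb1a (1370464_at) slope the same way in 5 of 5 pairs, while those of Abcb1a (1370465_at), Abcc1 and Abcc4 do so in 4 of 5.

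Over all 50 ABC probe sets the log2 difference was above 0 in 34 and below 0 in 16, with a median of 0.04, against 0.00436 over all probe sets tested. At an unadjusted p under 0.05, 9 ABC probe sets were higher and 4 lower, while 12.1% of all probe sets passed in either direction. Mye-macrophages were higher in 5 of 5 pairs on 10 ABC probe sets (6.16% of all probe sets) and lower in 5 of 5 on 1 (6.59% of all). Without Abca1 and Abcg1, the remaining 43 probe sets of 35 genes held 1 call in each direction and a median of 0.0372, with 27 above 0 and 16 below. With 1 probe set per gene, the brightest, 3 of the 37 genes were called higher and 1 lower, of 16 in the filter; over all genes taken the same way and in the filter, 1.12% were called higher and 1.58% lower.

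By subfamily, the calls were 3 of 13 probe sets in A (6 in the variance filter) and 1 of 9 in B (5 in the filter). They were 1 of 12 in C (5 in the filter) and 1 of 8 in G (4 in the filter). In D, E and F they were 0 of 3, 0 of 1 and 0 of 4, with 1 each in the filter. Only probe sets in the filter could be called, and 2.69% of all those in it were. The A calls were all Abca1, the B call was the lower one of Abcb1a, and the D, E and F subfamilies had 5 probe sets outside the filter between them. For 41 of the 44 ABC probe sets that were not called, the 95% interval lay within 0.5 log2 units of 0; the 3 others were of Abca1, Abcg1 and Abcb1a. The mean level of 19 of the 50 lay under 2.32, the median of all probe set means.

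**Figure D3:**
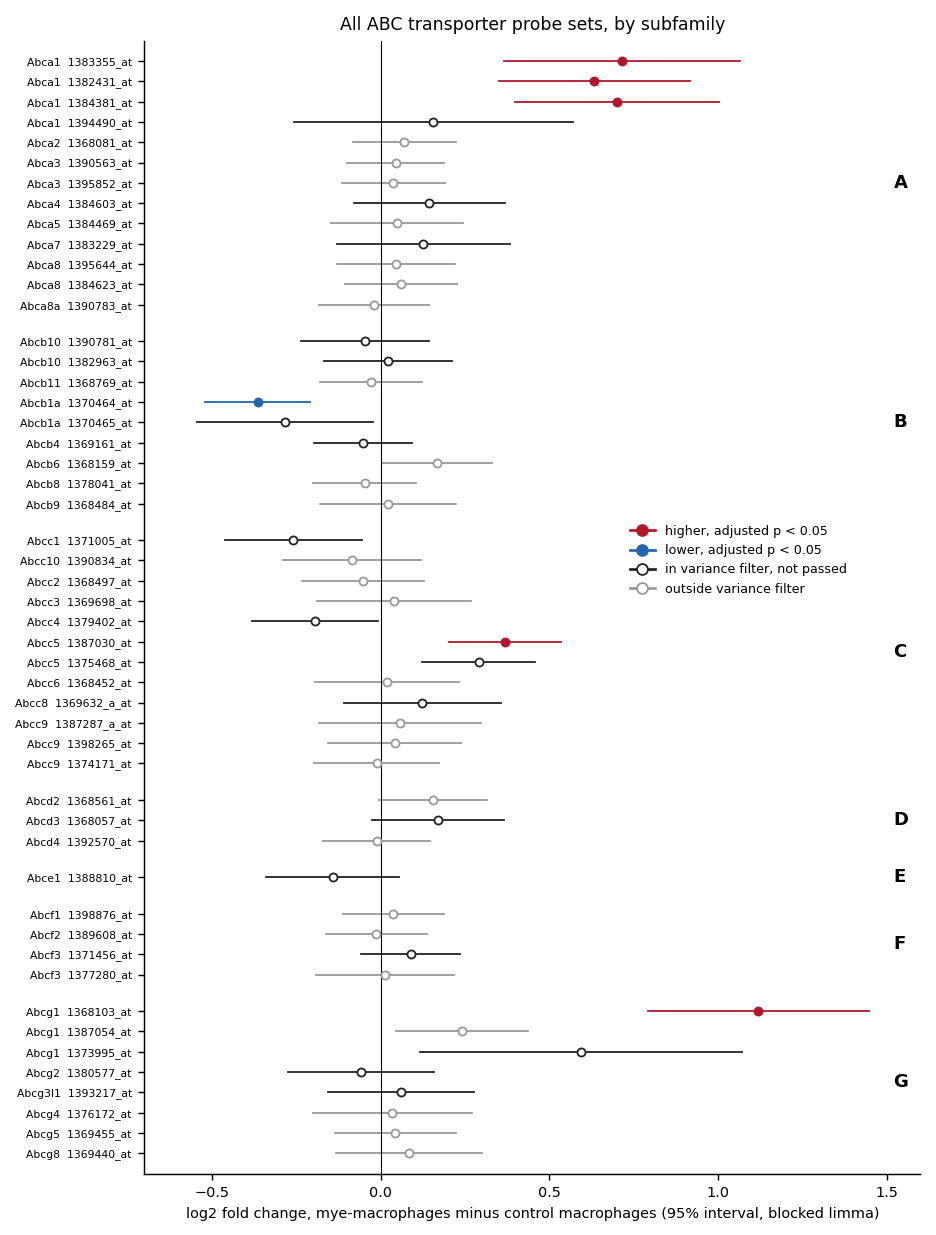
Log2 difference of all 50 ABC probe sets, mye-macrophages minus control macrophages (horizontal axis), with the 95% interval from limma with the replicate block, grouped by subfamily A to G. The 5 red points are the probe sets called higher (Abca1, Abcc5 and Abcg1) and the blue point is Abcb1a, called lower; most others lie close to 0.

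Most ABC probe sets had a larger share of their variation between replicate numbers than between groups. There are more replicate numbers than groups, so this order arises in part from the design alone. The shares are therefore set beside those over all probe sets. Of the total sum of squares over the 10 arrays, the median ABC probe set had 53.4% between replicate numbers and 5.01% between groups, against 57.9% and 5.79% over all probe sets. At the far end, 98.7% of the variation of Abcb4 lay between numbers: mye-macrophages had 4.25, 4.23, 4.82, 5.12 and 4.60, against 4.29, 4.36, 4.88, 5.09 and 4.66 in control macrophages, so both groups were lowest in numbers 1 and 2 and highest in number 4. The mitochondrial transporter Abcb10 (1390781_at) ran the other way, with 6.07, 5.85, 5.11, 4.56 and 5.17 in mye-macrophages and 5.88, 5.87, 5.07, 4.91 and 5.26 in control macrophages. Of the called probe sets, Abcc5 had 72.2% of its variation between numbers and 25.0% between groups, Abcg1 51.1% and 43.1%, and Abcb1a 43.8% and 52.6%. What the replicate numbers stand for is not given in the sources used here.

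**Figure D4:**
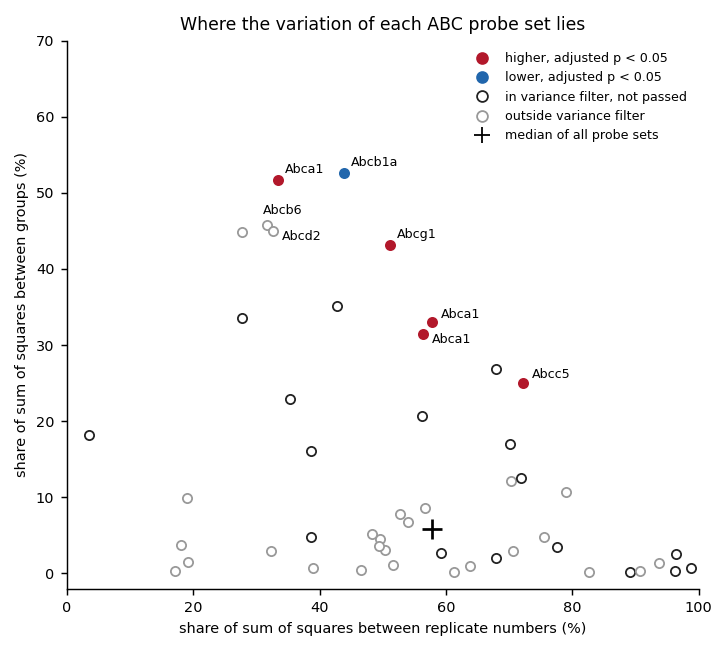
Share of the sum of squares over the 10 arrays that lies between replicate numbers (horizontal axis, percent) and between mye-macrophages and control macrophages (vertical axis, percent), 1 point per ABC probe set, with a cross at the medians of all probe sets. Called probe sets lie at 25.0% or more between groups, and many uncalled ones lie at the lower right. Some uncalled ones also lie high, such as Abcb6 at 45.8% and Abcd2 at 44.9% between groups. There are more replicate numbers than groups, so larger values on the horizontal axis arise in part from the design alone.

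Other genes of cholesterol handling were set beside the transporters from a list of 25, of which 22 were measured. Of these 0 were called in either direction by limma with the block, with a median log2 difference of 0.02; 6 had an unadjusted p under 0.05 (12.1% of all probe sets) and 5 were higher in 5 of 5 pairs (6.16% of all probe sets), and 1 was called higher when the variance prior was allowed a trend and made robust. Apoe, an acceptor and carrier of cholesterol, averaged 3.45 ± 0.54 in mye-macrophages and 3.07 ± 0.36 in control macrophages (SD, n = 5 each, adjusted p = 0.148, limma with the block). Lpcat3, a phospholipid remodelling enzyme and LXR target, had a log2 difference of 0.31 (adjusted p = 0.0853, limma with the block) and Pltp, the phospholipid transfer protein, of 0.25 (adjusted p = 0.150, limma with the block). Nr1h3, which encodes LXRα, was at 0.16 and Nr1h2, which encodes LXRβ, at -0.07, neither called. On their brightest probe sets, the ABC proteins whose symbols do not start with Abc lay near 0. Tap1 and Tap2, the peptide transporters of antigen presentation, were at -0.02 and -0.05, and the chloride channel Cftr at 0.01. A dimmer Tap1 probe set was at 0.25 and was not called (adjusted p = 0.198, limma with the block). The 6 partners of Tap1 and Tap2 in peptide loading held 0 calls.

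Markers of other cells were measured beside these results. The mean log2 signal over 10 macrophage markers ranged over 7.57 to 8.71 among mye-macrophages and 7.51 to 8.57 among control macrophages, and 1 of the 10 was called higher, the mannose receptor Mrc1 (log2 difference 0.71, adjusted p = 0.0265, limma with the block). With the random block 0 of the 10 were called. Oligodendrocyte and myelin markers averaged 2.57 to 2.81 in mye-macrophages and 2.12 to 2.46 in control macrophages over 14 genes, without overlap. Of these, 2 were called higher, Mobp by 3.60 and Bcas1 by 1.76 on the log2 scale. The other genes of the list lay between -0.20 and 0.15 and were not called, so the average does not describe the whole list. Of the 14 genes, 8 lay under the median of all probe set means. The list takes the brightest probe set of each gene, and for Mbp, which encodes myelin basic protein, that one lay outside the filter at -0.20. Another probe set of Mbp averaged 7.40 in mye-macrophages and 4.03 in control macrophages and was called higher by 3.37 (adjusted p = 0.000877, limma with the block). A further Mbp probe set (-0.04) and the other Mobp probe sets (0.12 and 0.01) were not called. The part of these markers in the ABC results was not tested. Markers of astrocytes and neurons (10 measured), of T, B and NK cells (8), of granulocytes and mast cells (8) and of mesothelial cells and fibroblasts (9) held 0 calls. The gap between 3′ and 5′ signals of beta-actin, which widens as RNA breaks down, averaged 3.30 ± 0.32 log2 units in mye-macrophages, against 3.02 ± 0.30 in control macrophages (SD, n = 5 each). An exact permutation test that did not keep the pairs gave a two-sided p = 0.190. With that gap as a covariate beside the block, limma called 0 ABC probe sets, and the log2 difference was 0.99 for Abcg1 (adjusted p = 0.111) and 0.51 for Abca1 (adjusted p = 0.319).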

How the data were processed

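Gene expression was measured in 10 rat macrophage samples on Affymetrix arrays. The authors deposited log2 values made by RMA with the affy package from the raw array files, with no probe set removed; RMA corrects the background, equalizes the arrays and summarizes probes. Array medians of 2.30 to 2.34 are low for RMA and the reason is not known. The annotation of the array assigns 1 symbol to 20826 of 31042 probe sets; 57 control probe sets were left out, and 2 probe sets with several symbols, an ABC gene among them, were not used. The 37 symbols were unchanged in the RefSeq table (GRCr8), which also gave the promoters. Proteins were not used here.

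limma 3.58.1 in R 4.3.3 (lmFit, eBayes) was fitted on all 31042 probe sets, with a block for the replicate number. Benjamini-Hochberg adjustment covered the 50% of larger interquartile range, at a threshold of 0.05. The methods of the study name a variance filter of that size and an unpaired test. The pairing comes from the numbers in the labels and from the values: deviations from the group means correlated at 0.404 to 0.791 within numbers, above the 0.1 required, and at most at 0.279 across numbers, and 10 of 10 samples correlated best with their own number. Whether each sample is a separate animal is not given in the labels, so p-values measure the spread between these samples only, and their number limits the precision. The scripts were tested on simulated data.

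The members and gene lists were chosen with earlier results of these data known. Values in every sample are given for all probe sets of Abca1 and Abcg1, every called member, the 10 next by unadjusted p and the 6 brightest (20 probe sets in all); others are given by subfamily, and Abcb4 and Abcb10 were added after their values were seen. Alternatives covered the test, block, filter, scaling, variance prior, array weights, beta-actin and samples left out. Figures were drawn with matplotlib 3.10.9 in Python 3.11.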

Additional observations from a re-analysis of the deposited data

Results flagged for a closer look

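Among the 40 groups of 5 samples of the ABC probe sets given with every sample, 3 held a sample whose distance to the nearest other was more than 0.71 of the range of its group; chance marks about 1 in 20 groups. On the Abca1 probe set 1382431_at, mye-macrophages 3 was at 6.71, below the other 4 samples at 7.24 to 7.32, a gap of 0.863 of the range. On the Abcg1 probe set 1373995_at, mye-macrophages 2 was at 4.03, with the next sample at 2.44 and the lowest at 1.94, a gap of 0.761 of the range. On the Abcd2 probe set 1368561_at, control macrophages 2 was at 0.166, with the other samples at 0.404 to 0.479, a gap of 0.761 of the range. Without replicate 3 this Abca1 probe set was called (0.65, adjusted p = 0.0428, limma with the block), while without replicate 1, 2 or 5 it was not.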

How the results depend on the processing

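The brightest probe sets of Abca1 and Abcg1 were higher in mye-macrophages under every alternative run. Their log2 differences were unchanged at 0.72 and 1.12 in the fit without the replicate block and in the methods' t-test. They were also unchanged in the paired test on each probe set alone and with the pair as a random block. In none of these 4 was either called at an adjusted p under 0.05. The ABC calls were 0 higher and 0 lower in all 4, and those over all probe sets 0 and 0 (4 and 7 with the random block). The adjustment was added here to the methods' t-test, for which the study's methods name none. At an unadjusted p under 0.05 that t-test gave 5 ABC probe sets higher and 1 lower, and 774 and 663 over all probe sets. The study lists both genes as upregulated. Without the filter Abcg1 was called and Abca1 (0.72, adjusted p = 0.0947) was not, with 1 ABC call higher and 0 lower, and 39 and 89 over all probe sets. The brightest Abca1 probe set also missed the threshold with a low-signal filter (0.72, adjusted p = 0.0507) and with a trended, robust prior (0.72, adjusted p = 0.0730). Under that prior 387 probe sets were higher and 654 lower. The Abca1 probe sets 1384381_at and 1382431_at stayed called in both settings. Their adjusted p in limma was 0.0342 and 0.0393 with the low-signal filter, and 0.0100 and 0.0136 with that prior. With the beta-actin gap the differences were 0.51 and 0.99, the ABC calls 0 and 0, and those over all probe sets 6 and 10. With samples left out, Abca1 ranged over 0.49 to 0.87 and Abcg1 over 0.86 to 1.27, the ABC calls over 0 to 4 higher and 0 to 0 lower, and those over all probe sets over 0 to 141 higher and 1 to 531 lower. Taking the probe set with the largest interquartile range per gene gave 3 genes higher and 0 lower. Array weights added the dimmer Abcc5 probe set to the calls. The block cannot hold a lone sample, so leaving out 1 sample with its block dropped the pair, and single samples were left out with a random block. The macrophage marker count of 1 went to 0 in 20 of 26 alternatives, 14 of them with samples left out; the myelin count of 2 went to 0 or 1 in 11 of 26, 8 of them with single samples left out under the random block; the cholesterol count was 1 with the trended prior. Differences near 0 changed sign: Abcf2 to 0.00211 (quantile scaling), 0.0174 (beta-actin) and -0.0535 to 0.0214 (samples left out), Abcf1 to -0.00409 (beta-actin), and the dim Abca1 probe set to -0.000434 at the lowest and 0.34 at the highest with samples left out. Dim probe sets, 19 of the 50, limit what can be seen.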
